A study of Mus musculus with 15 samples.

Results

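Galr1, Halr1, H2-M5, Mir124a-1hg, Aire and Dusp27 are 6 mouse genes, of 52636 in the deposited count table, that were scarcely detected in epiblast-like cells (EpiLCs) before ERK signalling was switched on and stood higher 4 h later. They were chosen by their measured rise. Galr1 and Halr1 were picked on 4h vs 0h, and H2-M5, Mir124a-1hg, Aire and Dusp27 on 4h vs 2h, among genes called changed, with a mean of at least 1 CPM (a count divided by the TMM-scaled library size and multiplied up to 1e6, TMM being edgeR's trimmed-mean scaling) over all samples and the same sign of change in clone 4 and clone 8. Their changes between 4h and another group are therefore descriptions, with no test.

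The RNA came from 15 libraries of the line CRAFR26, mouse embryonic stem cells carrying an inducible c-RAF kinase construct, c-RAF being the kinase that feeds the MEK and ERK kinases. Cells went through 2 passages as RSCs, the labels' name for that stage, and 48 h of differentiation to EpiLCs with bFGF, Activin A and XAV939. Every group spent 2 h in 250 nM of the FGF receptor inhibitor PD17: 0h had no 4-hydroxytamoxifen (4OHT, n = 3), 2h and 4h had 2 and 4 h of 250 nM 4OHT (n = 4 each), and rev had 4 h of 4OHT and then 2 h of a MEK inhibitor that the labels do not name (n = 4). All groups held 2 libraries of clone 4 and 2 of clone 8, except 0h, with 1 of clone 4 and 2 of clone 8. A single line and 2 clones limit how far the values extend to other cells, and no group without 4OHT was sampled at the later times among the libraries used here. The labels do not say whether the replicates of a clone were separate cultures, so p-values measure the spread between these libraries, which may be technical.

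EpiLCs model the pluripotent epiblast shortly after implantation. ERK is the last kinase of the FGF pathway: in pluripotent cells its activity induces immediate early genes and feedback inhibitors and favours exit from the naive state, whose factors include Esrrb, Klf2 and Klf5. Galr1 encodes a G protein-coupled receptor for the neuropeptide galanin, Halr1 is a long noncoding RNA beside the Hoxa cluster, H2-M5 is a class I gene of the MHC region, Mir124a-1hg is the host transcript of a neuronal microRNA, Aire drives expression of self-antigens in medullary thymic epithelium, and Dusp27 encodes an atypical member of the dual-specificity phosphatase family known from muscle.

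The 4h libraries were the shallowest. Their total counts lay between 1552022 and 6658950, against 8667880 to 13004556 in the other groups, so 3 counts, taken as the detection floor, made 0.683 to 1.83 CPM at 4h and 0.161 to 0.423 CPM elsewhere. The 9 most abundant genes took 63.3% to 77.9% of the counts at 4h and 48.9% to 71.9% elsewhere, and mitochondrial genes 7.21% to 12.4% against 2.67% to 6.98%. All 12 formative and primed pluripotency genes were detected, with a summed level of 1704 to 1998 CPM at 0h and 1184 to 1294 CPM at 4h. Within that sum Dnmt3b alone went from a mean of 935 to 416 CPM. Of the 12, 5 were called higher and 6 lower in 4h vs 0h, with a median log2 fold change of -0.16. Over all genes 20.5% were called higher and 18.9% lower. Naive genes summed to 171 to 195 CPM at 0h and 316 to 548 CPM at 4h.

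Positions are from GENCODE M21 on GRCm38. Halr1 (ENSMUSG00000085412) lies on the plus strand at chr6:52102949-52113684 and H2-M5 (ENSMUSG00000024459) on the minus strand at chr17:36984061-36989537. Mir124a-1hg (ENSMUSG00000097545) lies on the plus strand at chr14:64587331-64593961, Aire (ENSMUSG00000000731) on the minus strand at chr10:78030022-78043610, and Dusp27 (ENSMUSG00000026564) on the minus strand at chr1:166098148-166127922. Halr1 and Mir124a-1hg are annotated as lincRNAs and the others as protein coding. Each of the 6 is on its own chromosome.

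Promoters are shown for 4 members matched by symbol in the RefSeq table, since the genes were chosen for a shared rise at 4h. They were searched for motifs of ETS, AP-1 and Egr factors, the textbook nuclear targets of ERK, and of Esrrb, a naive-state factor. Galr1 was left out of this search and its promoter is not reported here, and no promoter of Mir124a-1hg was found. The 250 bases before the RefSeq start (GRCm38.p6) are given 5′ to 3′ in the gene's own direction: chr6:52102699-52102948 (plus strand) for Halr1, chr17:36989534-36989783 (minus) for H2-M5, chr10:78043611-78043860 (minus) for Aire and chr1:166127899-166128148 (minus) for Dusp27. Capitals mark the only motif match.
Halr1: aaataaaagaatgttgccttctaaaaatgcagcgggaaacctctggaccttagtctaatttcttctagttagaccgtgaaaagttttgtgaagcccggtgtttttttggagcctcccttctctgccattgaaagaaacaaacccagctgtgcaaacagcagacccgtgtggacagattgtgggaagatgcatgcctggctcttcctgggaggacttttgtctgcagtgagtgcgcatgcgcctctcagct
H2-M5: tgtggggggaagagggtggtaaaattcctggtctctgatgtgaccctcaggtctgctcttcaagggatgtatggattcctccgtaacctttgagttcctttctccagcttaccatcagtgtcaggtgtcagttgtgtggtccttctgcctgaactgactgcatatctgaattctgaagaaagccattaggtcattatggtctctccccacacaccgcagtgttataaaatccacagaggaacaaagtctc
Aire: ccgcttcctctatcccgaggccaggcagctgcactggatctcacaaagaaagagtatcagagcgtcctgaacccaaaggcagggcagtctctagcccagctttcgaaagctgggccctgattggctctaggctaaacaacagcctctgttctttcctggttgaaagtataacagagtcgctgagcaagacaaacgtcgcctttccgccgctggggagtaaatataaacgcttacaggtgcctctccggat
Dusp27: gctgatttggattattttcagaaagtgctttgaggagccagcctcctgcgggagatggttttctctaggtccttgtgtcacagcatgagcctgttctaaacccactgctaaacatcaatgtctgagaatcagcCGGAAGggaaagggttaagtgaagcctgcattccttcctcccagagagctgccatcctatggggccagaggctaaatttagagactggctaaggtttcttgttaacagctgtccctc
The letters searched on both strands, in these bases and the 50 after the start, were CGGAAG for ETS, TGANTCA for AP-1, GCGTGGGCG for Egr and AAGGTCA for Esrrb, none of which overlapped another. Dusp27 held 1 ETS match, from base 134 of the window, and the other 3 windows held no match to any of the 4. Among 32851 RefSeq promoter windows of 300 bases, 16.85% held the ETS letters, 7.81% AP-1, 0.61% Egr and 4.72% Esrrb. A match in letters is a description, and its absence says only that these letters are not in the window.

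All 6 genes had every 4h library above every 0h library in CPM, which held for 18.2% of the 13451 genes tested in that direction. Against 2h the 4h libraries stood apart for 5 of the 6, with Galr1 overlapping, against 12.8% of all genes; the choice of members fixes both counts. In raw counts, which ignore the lower depth at 4h, only Mir124a-1hg and Dusp27 kept the 4h libraries above every 2h library. The 6 passed the filter on low counts with 3 to 11 libraries past its level (1.03 CPM on unscaled totals). H2-M5 passed with 3 libraries and Mir124a-1hg with 4, all at 4h, so both were tested only because of the group in which they were high. Bulk RNA cannot tell a few cells with much of a transcript from many cells with little of it.

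**Figure D1:**
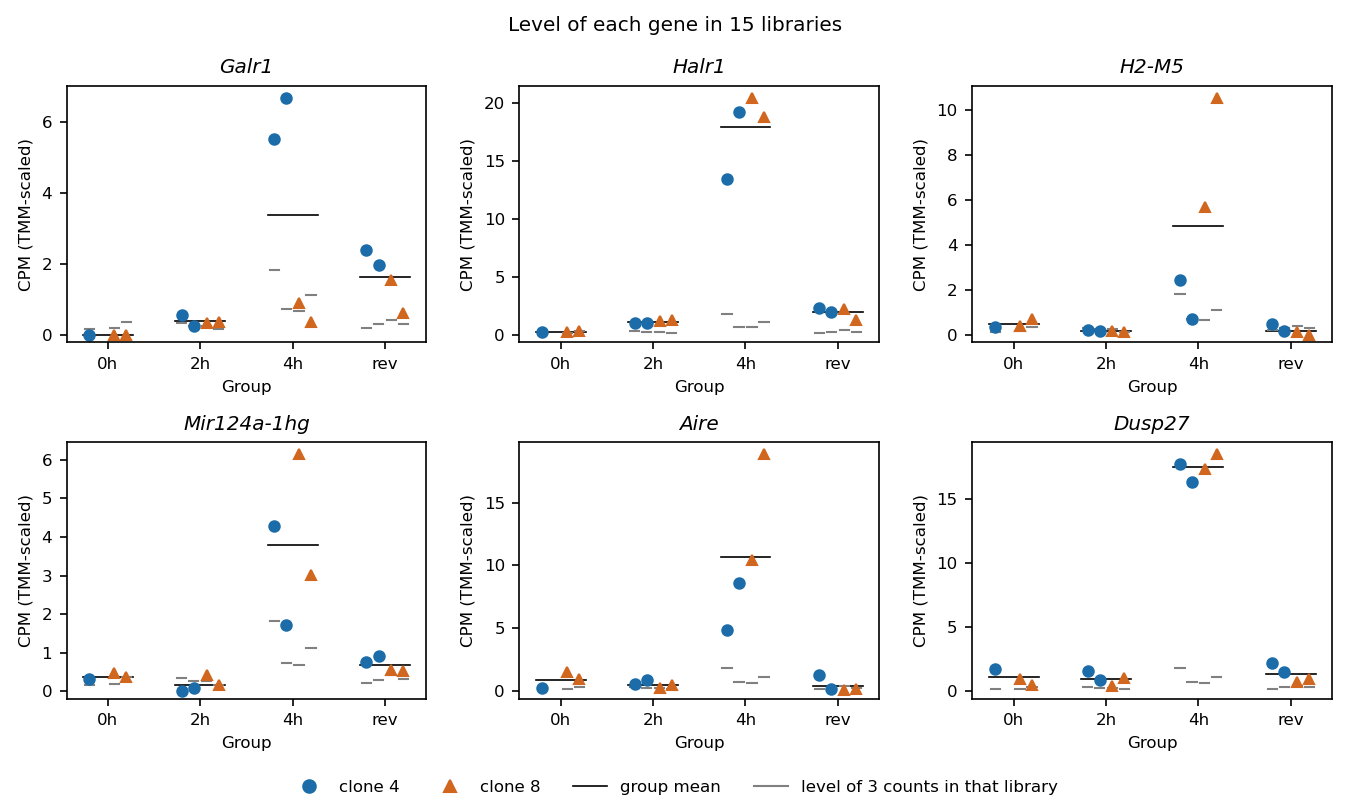
Level of each of the 6 genes in CPM (TMM-scaled, linear axis) in the 15 libraries, by group, with circles for clone 4 and triangles for clone 8; black lines are group means and short grey lines the level that 3 counts make in that library. Dusp27 and Halr1 at 4h sit far above their floors, whereas Galr1 in clone 8 and H2-M5 in clone 4 lie near theirs.

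Dusp27 and Halr1 had the best-supported rise, since every 4h library held at least 22 counts of each. Dusp27, whose family includes the MAP kinase phosphatases, had 33, 15 and 4 counts at 0h (clone 4 replicate 1, clone 8 replicates 1 and 2, the order used for 0h throughout). It had 14, 10, 5 and 19 counts at 2h and 29, 66, 76 and 49 at 4h, in the order clone 4 replicates 1 and 2, clone 8 replicates 1 and 2. After the MEK inhibitor it had 32, 15, 5 and 9. On scaled libraries this made 1.78, 1.00 and 0.485 CPM at 0h, 1.59, 0.884, 0.436 and 1.02 at 2h, 17.7, 16.3, 17.3 and 18.5 at 4h, while rev had 2.24, 1.55, 0.705 and 0.934. The 4 libraries at 4h lay close together (17.4 ± 0.909 CPM, SD, n = 4) and the 3 other groups overlapped one another at 1.09 ± 0.653 (n = 3), 0.982 ± 0.475 and 1.36 ± 0.689 CPM (n = 4 each). As description, its log2 fold change was 3.92 (SE 0.338) in 4h vs 0h, 4.19 (SE 0.309) in 4h vs 2h and -3.73 (SE 0.304) in rev vs 4h.

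Halr1, a transcript beside the Hoxa genes and known as a regulator of them in embryonic stem cells, was the only one of the 6 whose groups were all separate in CPM. Its counts were 5, 4 and 3 at 0h, 9, 12, 14 and 24 at 2h, 22, 78, 90 and 50 at 4h, while rev had 34, 19, 16 and 13. In CPM these were 0.270, 0.267 and 0.363 at 0h, 1.02, 1.06, 1.22 and 1.29 at 2h, 13.4, 19.3, 20.5 and 18.8 at 4h, while rev had 2.38, 1.96, 2.26 and 1.35. No group overlapped another: the means were 0.300 ± 0.0547 (SD, n = 3), 1.15 ± 0.126, 18.0 ± 3.12 and 1.99 ± 0.461 CPM (n = 4 each). The share of all genes with every group separate was not counted. The described log2 fold change was 5.91 (SE 0.301) in 4h vs 0h and -3.17 (SE 0.220) in rev vs 4h, and rev remained 2.74 (SE 0.308) above 0h. On a per-length scale (CPM per kilobase of exon), Halr1 had the highest mean level of the 6 at 4h (18.4), followed by Dusp27 (4.31), Aire (2.80), H2-M5 (1.81), Galr1 (1.13) and Mir124a-1hg (0.789).

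Aire, the transcriptional regulator of thymic self-antigen expression, was scattered at 0h and high in all 4h libraries. Its counts were 5, 23 and 8 at 0h, 5, 10, 3 and 9 at 2h, 8, 35, 46 and 50 at 4h, while rev had 19, 2, 1 and 2. In CPM these were 0.270, 1.54 and 0.969 at 0h, 0.567, 0.884, 0.262 and 0.482 at 2h, 4.89, 8.64, 10.5 and 18.8 at 4h, while rev had 1.33, 0.206, 0.141 and 0.208. The 4h libraries (10.7 ± 5.90 CPM, SD, n = 4) stood above all others, and 0h, 2h and rev overlapped (0.925 ± 0.635, n = 3; 0.549 ± 0.258 and 0.472 ± 0.574, n = 4 each). The described log2 fold change was 3.61 (SE 0.633) in 4h vs 0h, 4.26 (SE 0.611) in 4h vs 2h and -4.21 (SE 0.621) in rev vs 4h. Aire shares 67 exon bases with Dnmt3l, which lies on the opposite strand and encodes a cofactor of de novo DNA methyltransferases. The handling of strand in the counting is not given in the sources used here, so reads in the shared bases cannot be assigned to either gene. Dnmt3l stood at 35.9 ± 3.42 CPM at 0h (SD, n = 3), 27.2 ± 4.97 at 2h, 61.9 ± 12.2 at 4h and 25.2 ± 3.52 in rev (n = 4 each), and its part in the Aire counts was not tested.

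H2-M5 had 53 of its 60 counts at 4h in clone 8. Its counts were 7, 6 and 6 at 0h, 2, 2, 2 and 3 at 2h, 4, 3, 25 and 28 at 4h, while rev had 7, 2, 1 and 0. In CPM these were 0.378, 0.401 and 0.727 at 0h, 0.227, 0.177, 0.174 and 0.161 at 2h, 2.44, 0.741, 5.69 and 10.6 at 4h, while rev had 0.490, 0.206, 0.141 and 0. The lowest 4h library (clone 4 replicate 2, 3 counts) lay at its detection floor and 0.741 CPM against 0.727 in the highest 0h library, so the separation of 4h from 0h rests there on a few reads. Every 2h library was at or below 3 counts, and the 2h and rev means of 0.185 ± 0.0290 and 0.209 ± 0.206 CPM (SD, n = 4 each) are not resolved from each other at this depth. The described log2 fold change was 3.27 (SE 0.574) in 4h vs 0h, 4.57 (SE 0.617) in 4h vs 2h and -4.03 (SE 0.616) in rev vs 4h. H2-M5 belongs to a family of similar class I genes, and how reads matching several of them were counted is not given in the sources used here.

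Mir124a-1hg, the host of a microRNA known for promoting neuronal identity, had 11 counts or fewer in each library outside 4h. Its counts were 6, 7 and 3 at 0h, 0, 1, 5 and 3 at 2h, 7, 7, 27 and 8 at 4h, while rev had 11, 9, 4 and 5. In CPM these were 0.324, 0.468 and 0.363 at 0h, 0, 0.0884, 0.436 and 0.161 at 2h, 4.28, 1.73, 6.15 and 3.02 at 4h, while rev had 0.771, 0.929, 0.564 and 0.519. The 4h libraries (3.79 ± 1.88 CPM, SD, n = 4) lay above all others, and the rev libraries (0.696 ± 0.190, n = 4) above those of 0h (0.385 ± 0.0744, n = 3) and 2h (0.171 ± 0.188, n = 4). In raw counts, 3 of the 4h libraries (7, 7 and 8) were within the range of rev, so the difference from rev comes from the scaling for depth in those 3. The described log2 fold change was 3.27 (SE 0.501) in 4h vs 0h, 4.33 (SE 0.520) in 4h vs 2h and -2.32 (SE 0.450) in rev vs 4h. The hairpin genes Mir124a-1 (85 bases) and Mir3078 (87 bases) lie in its exons on the same strand and had 0 counts in all 15 libraries, in a protocol that does not select small RNAs.

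Galr1 (ENSMUSG00000024553), on the minus strand at chr18:82392380-82406777, was the only member with no read at 0h. Its counts were 0, 0 and 0 at 0h, 5, 3, 4 and 7 at 2h, 9, 27, 4 and 1 at 4h, while rev had 34, 19, 11 and 6. A count of 0 allows a level of up to 0.162, 0.201 and 0.363 CPM in the 3 libraries of 0h, at 3 counts per library; such floors cover counting error only. In CPM Galr1 stood at 0.567, 0.265, 0.349 and 0.375 at 2h, 5.50, 6.66, 0.911 and 0.377 at 4h, while rev had 2.38, 1.96, 1.55 and 0.623. Against the mean of the 3 floors its mean was at least 1.61-fold higher at 2h (0.389 ± 0.128 CPM, SD, n = 4), at least 13.9-fold higher at 4h (3.36 ± 3.18) and at least 6.73-fold higher in rev (1.63 ± 0.752). The clones were far apart at 4h: the bound was 37.5 in clone 4 and 2.28 in clone 8, where 1 library held a single count, under its floor. Leaving out 1 library at a time, the bound at 4h ranged from 9.35 to 18.6. The 4h and rev libraries overlapped, and the described log2 fold change in rev vs 4h was -0.89 (SE 0.439), the smallest of the 6.

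**Figure D2:**
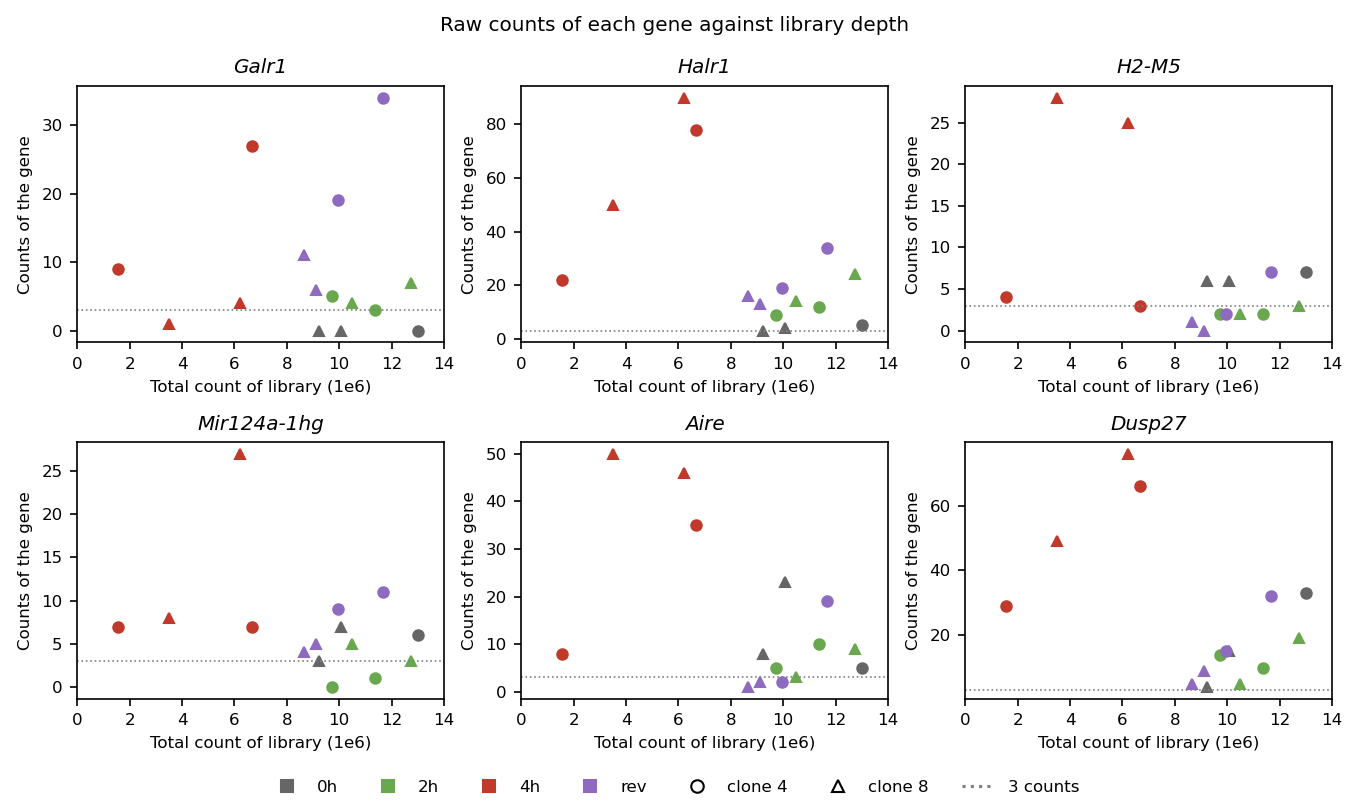
Raw counts of each of the 6 genes (vertical axis) against the total count of the library (horizontal axis, in units of 1e6), coloured by group, with circles for clone 4, triangles for clone 8 and a dotted line at 3 counts. The 4h libraries lie to the left, between 1552022 and 6658950 counts, and still hold the highest counts of 5 genes; the highest Galr1 count (34) is in rev.

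The members picked on 4h vs 2h were tested in rev vs 0h, a comparison of groups the choice did not use, in which 11.2% of all genes passed (edgeR's quasi-likelihood test, Benjamini-Hochberg adjusted p under 0.05 over all genes). Neither Dusp27 nor Aire passed, and the values of H2-M5 and Mir124a-1hg say little, since both lie near the detection floor in 0h and rev and reached the filter only through 4h. Dusp27 differed by 0.19 log2 (SE 0.344, adjusted p = 0.765) and Aire by -0.60 (SE 0.734, adjusted p = 0.645). The fitted differences were -0.76 for H2-M5 (SE 0.726, adjusted p = 0.536) and 0.94 for Mir124a-1hg (SE 0.533, adjusted p = 0.266). These standard errors leave room for differences in either direction. The Aire value depended on clone 4 replicate 1 of rev, which held 19 counts against 1 or 2 in the others: without it the difference was -2.11 (adjusted p = 0.0464). The Dusp27 value turned sign when libraries were scaled by total count (-0.14, adjusted p = 0.866).

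Galr1 and Halr1, picked on 4h vs 0h, were tested in rev vs 2h, in which 2.31% of all genes passed. Galr1 had 2 libraries at 4h, 3 in rev and 0 at 2h past the level of the filter on low counts. The higher group of this test, rev, thus helped Galr1 to be tested, and its p-value is not free of that. Galr1 was higher in rev by 1.89 log2 (SE 0.474, adjusted p = 0.0382 by edgeR). This call was lost without the clone term (adjusted p = 0.203) and when any of 6 of the 8 libraries was left out (clone 4 replicates 1 and 2 at 2h and all 4 of rev). Halr1 differed by 0.79 log2 (SE 0.234, adjusted p = 0.0858). It passed only without clone 8 replicate 2 of rev (0.98, adjusted p = 0.0346).

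The clones were compared within 4h. The choice of members asked for the same sign of change in both clones, which uses the 4h level of each clone but not the size of the gap between them, so the comparison is not wholly free of the choice. Galr1 was lower in clone 8 and passed the test, where 14.3% of all genes did. H2-M5 was higher in clone 8, but only 4h libraries carried it past the filter on low counts, so its difference is a description. Galr1 averaged 6.08 CPM in clone 4 (36 counts in 2 libraries) and 0.644 CPM in clone 8 (5 counts), a log2 difference of -3.12 (SE 0.602, adjusted p = 0.0013 by edgeR's quasi-likelihood test). H2-M5 averaged 1.59 CPM in clone 4 (7 counts) and 8.12 CPM in clone 8 (53 counts), a difference of 2.59 (SE 0.647). Without clone 4 replicate 2 the H2-M5 difference was 1.69, and without any other 4h library H2-M5 did not reach the filter on low counts. With no such filter the H2-M5 difference was 2.62. The call for Galr1 held when each 4h library was left out (adjusted p 0.00359 to 0.0242).

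The other 4 members did not pass between the clones at 4h, and Mir124a-1hg too was carried past the filter on low counts only by 4h libraries. Aire averaged 6.76 CPM in clone 4 and 14.7 CPM in clone 8, and differed by 1.03 log2 (SE 0.474, adjusted p = 0.165). Mir124a-1hg differed by 0.83 (SE 0.576, adjusted p = 0.377), Halr1 by 0.24 (SE 0.280, adjusted p = 0.625) and Dusp27 by 0.08 (SE 0.339, adjusted p = 0.916). Dusp27 averaged 17.0 and 17.9 CPM and Halr1 16.3 and 19.7 CPM in clones 4 and 8.

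The change from 2h to 4h in each clone entered the choice of members through its sign, so its difference between clones is given as a description; 3.14% of all genes passed the test of such a difference (422 by edgeR). Clone 8 minus clone 4, it was -2.98 log2 for Galr1 (SE 0.905) and 2.83 for H2-M5 (SE 1.23), both resting on low 2h counts. In rev, Galr1 averaged 2.17 CPM in clone 4 and 1.09 CPM in clone 8. Clone 8 thus had a mean of 0.644 CPM at 4h from 5 counts and of 1.09 CPM in rev from 17 counts, and was not seen to be lower after the MEK inhibitor.

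**Figure D3:**
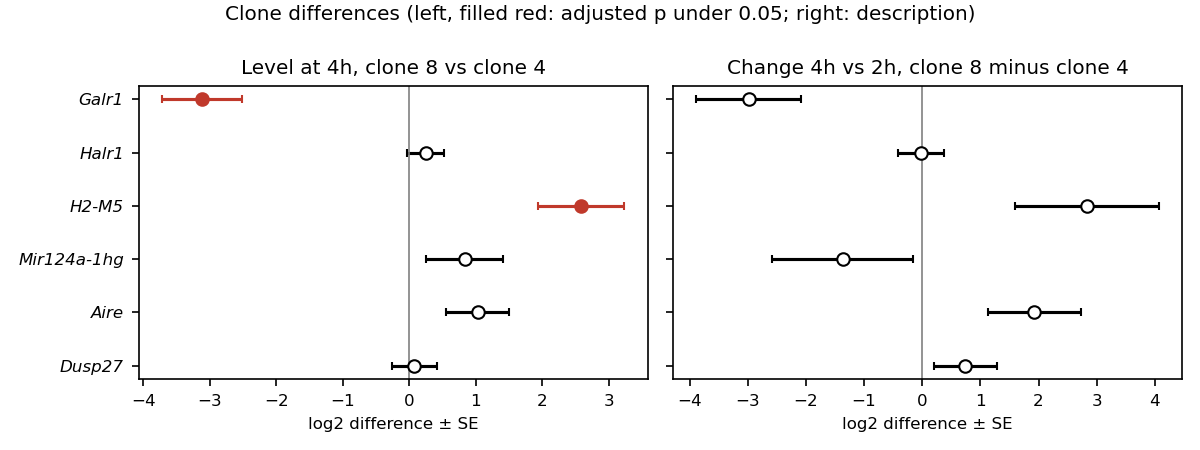
Log2 difference between clone 8 and clone 4 (horizontal axis, with SE) for the 6 genes: left, the level at 4h; right, the change from 2h to 4h, a description. Filled red points on the left have an adjusted p under 0.05, and Galr1 (-3.12) and H2-M5 (2.59) lie on opposite sides at 4h. The H2-M5 point is a description, since only 4h libraries carried it past the filter on low counts.

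Most other tested genes of MHC class I, which presents peptides on the cell surface, fell at 4h; H2-M5 itself was chosen for its rise, so its direction is no result. Of 32 other MHC class I and peptide-loading genes in the table, 21 were tested in 4h vs 0h: 15 fell, 2 rose and 4 did not pass, against 20.5% of all genes called higher and 18.9% called lower by edgeR. The list's median log2 fold change was -1.49, against 0.03 over all genes. H2-K1, a classical heavy chain, fell from 24.8 ± 2.90 CPM at 0h (SD, n = 3) to 8.18 ± 1.34 at 4h (n = 4; log2 fold change -1.63, SE 0.141, adjusted p = 1.48e-08). H2-Q4 fell by 2.46 on the log2 scale (adjusted p = 1.41e-06) and H2-Q10 by 2.22 (adjusted p = 0.00011). Their 4h means of 0.968 and 0.689 CPM lie within the range of the detection floors at 4h (0.683 to 1.83 CPM). H2-Q6, H2-Q7, H2-Q2 and Psmb9, which also fell, stood at 0.842, 0.531, 0.327 and 0.327 CPM at 4h, so these falls end near or under the floor. Nlrc5, the transactivator of class I genes, went from 2.22 to 0.0569 CPM and H2-Bl from 2.97 to 0.114 CPM, levels at 4h under the detection floor. The 2 that rose were H2-T24 (1.62, adjusted p = 0.0123) and Irf1, an interferon-response factor (1.20, adjusted p = 0.000298). After the MEK inhibitor 14 of the 21 rose and 1 fell, with 15.1% of all genes called higher and 15.6% lower in rev vs 4h. Leaving out each library in turn gave 13 to 15 falls and 2 rises at 4h; under scaling by total count the list had 18 falls and no rise, with all genes shifted by -0.73.

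**Figure D4:**
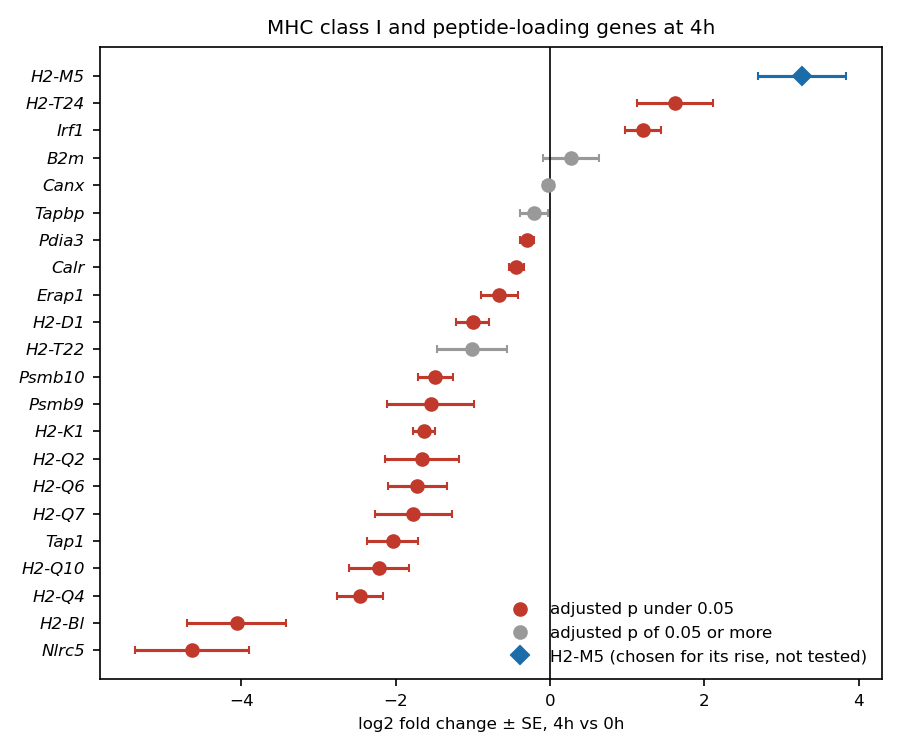
Log2 fold change in 4h vs 0h (with SE) of H2-M5 and the 21 tested MHC class I and peptide-loading genes. Red circles passed at an adjusted p under 0.05, grey circles did not, and the blue diamond is H2-M5, chosen for its rise; 15 red points lie to the left of 0 and 2 to the right.

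No ligand gene of Galr1 was detected at 4h. Gal and Galp, which encode galanin and galanin-like peptide, had 0 counts in all 4h libraries. The only other tested gene of the galanin list, the receptor Galr2, fell from 3.08 ± 1.15 CPM at 0h (SD, n = 3) to 0.819 ± 0.533 at 4h (n = 4), a log2 fold change of -1.96 (SE 0.433, adjusted p = 0.0011 by edgeR). That 4h mean lies within the range of the detection floors at 4h (0.683 to 1.83 CPM). Galr2 rose in rev vs 4h by 1.41 (adjusted p = 0.0171), a call lost without clone 4 replicate 2 of 4h (0.98, adjusted p = 0.110) or clone 8 replicate 2 of rev (1.18, adjusted p = 0.0627).

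Of the genes flanking Halr1, Skap2, an adaptor protein gene 90400 bp away, rose from 4.06 ± 0.261 CPM at 0h (SD, n = 3) to 10.9 ± 2.10 at 4h (n = 4; log2 fold change 1.45, SE 0.189, adjusted p = 4.32e-06 by edgeR). In rev it stood at 6.52 ± 0.314 CPM (n = 4), a log2 fold change of -0.75 from 4h (adjusted p = 0.00201). Under scaling by total count its 4h vs 0h value was 0.68 (adjusted p = 0.0889) and its rev vs 4h value -0.30 (adjusted p = 0.494).

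The circuit around miR-124, which in neurons lowers the splicing repressor Ptbp1 and small phosphatases that work with the silencer Rest, had 16 tested genes, of which 6 rose and 3 fell. Over all genes 20.5% were called higher and 18.9% lower in 4h vs 0h. Ptbp1 rose from 207 ± 9.43 to 366 ± 27.7 CPM (SD, n = 3 and 4; log2 fold change 0.79, adjusted p = 1.75e-06) and Rest from 164 ± 8.23 to 263 ± 50.8 CPM (0.70, adjusted p = 1.85e-05). Ptbp2 rose by 0.88 (adjusted p = 0.000218), and Ctdspl fell by 1.20 on the log2 scale (adjusted p = 0.000327). Sox9 passed at 2.99 (adjusted p = 0.0395), with 10.1 ± 11.9 CPM at 4h (SD, n = 4), but lost the call without clone 4 replicate 1 of 0h (2.14, adjusted p = 0.221), clone 4 replicate 2 of 4h (2.15, adjusted p = 0.132), clone 8 replicate 2 of 0h or clone 4 replicate 1 of 4h, and without the filter on low counts. Under scaling by total count none of the list rose and 5 fell, so these rises hold relative to the typical gene. Without clone 4 replicate 1 of 0h, 5 rose and 1 fell. Neuron markers moved both ways: of 13 tested, 4 rose and 4 fell, beside the same shares over all genes. Nefm rose by 2.88 (adjusted p = 0.011), with 67.1 ± 69.7 CPM at 4h (SD, n = 4), and Syp by 2.42 (adjusted p = 0.00436). Both lost the call without clone 4 replicate 1 of 0h (adjusted p 0.0716 and 0.0722). Stmn3 fell by 2.77 and Elavl3 by 1.63 on the log2 scale. Of the markers, 2 rose without clone 4 replicate 1 or clone 8 replicate 2 of 0h, or without clone 4 replicate 2 of 4h. Their summed level was 119 to 269 CPM at 4h and 122 to 230 CPM in the other libraries, and its part in the Mir124a-1hg values was not tested.

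Of 18 tested genes of the Aire and medullary thymic epithelium list, 8 rose and 1 fell in 4h vs 0h. The shares over all genes were 20.5% called higher and 18.9% lower. Prdm1, a transcriptional repressor, rose from 1.30 ± 0.396 to 7.83 ± 2.45 CPM (SD, n = 3 and 4; log2 fold change 2.59, adjusted p = 5.32e-07). The kinase gene Hipk2 rose by 1.64 (adjusted p = 3.1e-07), the costimulatory ligand gene Cd80 by 1.39 (adjusted p = 0.00435) and Icosl by 1.03 (adjusted p = 0.0017). Of the 25 genes of the list in the count table, 5 had 0 counts at 4h: Psmb11, Krt5, Krt14, Ccl21a and Ins2. Ccl21a and Ins2 had 0 counts in all 15 libraries. Foxn1 and Fezf2 were not among the genes at 0 but did not reach the filter on low counts, so neither was tested. Cldn4 stood at 11.8 ± 8.11 CPM at 4h (SD, n = 4) and did not pass. Under scaling by total count 2 rose and 7 fell, and neither Icosl (0.32, adjusted p = 0.438) nor Cd80 (0.615, adjusted p = 0.197) passed. With the main scaling, 2 fell without clone 4 replicate 1 of 0h or clone 4 replicate 2 of 4h. Without clone 4 replicate 1 of 0h 6 rose, and Cd80 lost its call (0.91, adjusted p = 0.0589). Haematopoietic markers, of which 3 were tested, summed to 15.1 to 19.0 CPM at 4h and 5.56 to 8.82 CPM in the other groups; Laptm5 and Cd68 rose (4 of 5 tested without any 1 library of 0h), H2-Aa and Tyrobp were at 0 at 4h, and the part of this list in the Aire values was not tested.

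Of 6 tested muscle and pseudophosphatase genes, 2 rose and 2 fell in 4h vs 0h. With 20.5% of all genes called higher and 18.9% lower, so few calls say little about the list. Myod1 rose (log2 fold change 2.25, adjusted p = 0.00225) at 2.20 ± 2.46 CPM at 4h (SD, n = 4), a call lost without the clone term (adjusted p = 0.0921), and Ttn, encoding titin, rose by 1.00 (adjusted p = 7.4e-05). Under scaling by total count Ttn differed by 0.25 (adjusted p = 0.487). Myh3 fell by 1.74 on the log2 scale (adjusted p = 0.0202) and Actn2 by 1.30 (adjusted p = 0.00486), and Tnnt2 was at 0 at 4h. Without clone 4 replicate 1 of 0h, or either clone 4 library of 4h, 1 fell and Myh3 lost its call (-1.19, -1.42 and -1.16, adjusted p 0.185, 0.0504 and 0.127); it did so too without the clone term (adjusted p = 0.0594). The list's summed level was 44.0 to 48.4 CPM at 4h against 26.3 to 40.1 CPM elsewhere.

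The naive pluripotency genes rose at 4h and fell in rev. Of 15 tested, 13 rose in 4h vs 0h with a list median of 2.48 log2, and 13 fell in rev vs 4h with a median of -2.03. Over all genes 20.5% were called higher and 18.9% lower in 4h vs 0h, and 15.6% lower in rev vs 4h. Esrrb, which ranked just behind Dusp27 in 4h vs 2h, rose from 3.29 ± 0.908 to 42.9 ± 36.6 CPM (SD, n = 3 and 4; log2 fold change 3.57, adjusted p = 0.000575). Klf2 rose by 2.97 (adjusted p = 5.91e-10) and Klf5 by 2.97 (adjusted p = 6.16e-05). Tcl1 went from 0.279 to 5.54 CPM and Prdm14 from 0.0764 to 2.92 CPM. The list was chosen with this direction known and gives no independent support. Primitive endoderm genes summed to 18.9 to 20.5 CPM at 4h and 26.9 to 44.3 CPM elsewhere, with 1 of 7 higher and 3 lower (none higher without clone 4 replicate 2 of 4h). Zscan4c, Zscan4d and Zscan4f, near-identical genes of the two-cell-like list among which reads may be split, all rose, and that list summed to 10.4 to 18.0 CPM at 4h against 1.40 to 3.63 CPM elsewhere. The part of these cell states in the members' values was not tested.

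**Figure D5:**
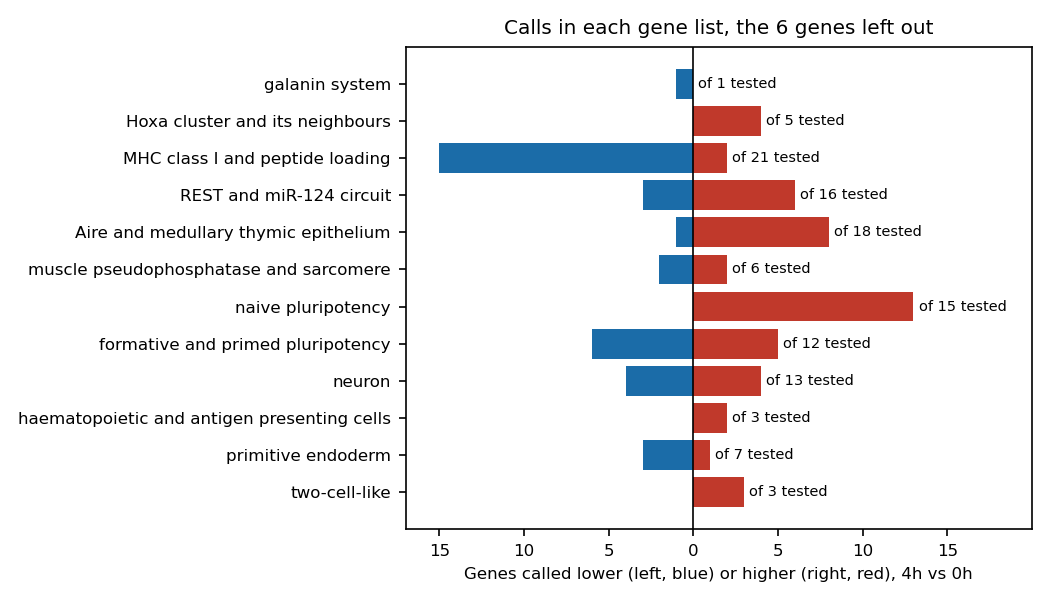
Number of genes of each list called higher (red, to the right) or lower (blue, to the left) in 4h vs 0h, with the number tested beside each bar; the 6 chosen genes are left out. The naive pluripotency list has 13 of 15 higher, and the MHC class I list 15 of 21 lower. Over all genes 20.5% were called higher and 18.9% lower.

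Some neighbours of the members rose in 4h vs 0h. Gpa33, a cell-surface antigen gene 2316 bp from Dusp27, rose from 1.82 ± 0.207 to 9.71 ± 2.35 CPM (SD, n = 3 and 4; log2 fold change 2.41, SE 0.293, adjusted p = 1.93e-06) and was at 1.14 ± 0.405 CPM in rev. Zfp57, a zinc finger gene that maintains imprints and lies 11626 bp from H2-M5, rose from 9.10 ± 1.52 to 70.5 ± 9.97 CPM (2.97, SE 0.170, adjusted p = 4.18e-11) and was at 12.1 ± 2.10 CPM in rev. On either side of Aire, Icosl rose by 1.03 (adjusted p = 0.0017) and Pfkl fell by 0.76 on the log2 scale (adjusted p = 0.000358). Under scaling by total count Icosl differed by 0.32 (adjusted p = 0.438). Kif13b, next to Mir124a-1hg, rose by 0.53 (adjusted p = 0.0092), and Msra on its other side differed by 0.59 (adjusted p = 0.0757). The Kif13b value is smaller than the shift of -0.73 that scaling by total count gives the median gene. Mbp, the nearest protein-coding gene tested beside Galr1, differed by -0.13 (adjusted p = 0.689). On the other side the nearest protein-coding gene, Sall3, 1405609 bp away, rose by 1.47 (SE 0.312, adjusted p = 0.000847).

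The gene with the profile most like each member was sought over the 15 libraries among 12275 genes, by Pearson's r of log2(CPM + 1). The r values are descriptions, since the libraries share groups, clones and the depth difference at 4h. Galr1 was most like Piwil4 (r = 0.967), Fam107b (0.963) and Pla2g7 (0.959), which also stayed above 0h in rev: Pla2g7 went from 0.161 CPM at 0h to 8.76 at 4h and 5.70 in rev. Halr1 was most like Cntfr (0.975), Zfp57 (0.973) and Arid5b (0.967). H2-M5 was most like Esrrb (0.969), Kirrel (0.963) and Sohlh2 (0.952), and Aire like Tex14 (0.979), Mov10 (0.964) and Rinl (0.963). Dusp27 was most like Ap1m1 (0.988), Lncenc1 (0.983) and Rarg (0.983), and Mir124a-1hg like Fam117b (0.960), Zbtb38 (0.958) and Dock5 (0.951). Over the 11 libraries outside 4h, r with the first of each was 0.910 for Galr1 and Piwil4, 0.941 for Halr1 and Cntfr, 0.934 for Dusp27 and Ap1m1, 0.721 for Aire and Tex14, 0.741 for Mir124a-1hg and Fam117b, and 0.609 for H2-M5 and Esrrb. Among the members themselves r ran from 0.112 (Galr1 and H2-M5) to 0.944 (Halr1 and Dusp27).

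By the ranking that chose them, Galr1 had rank 3 and Halr1 rank 5 in 4h vs 0h, and H2-M5, Mir124a-1hg, Aire and Dusp27 had ranks 1 to 4 in 4h vs 2h. Egr3 (9.03 log2), Sprr1a (8.19) and Spry4 (6.10) had ranks 1, 2 and 4 in 4h vs 0h and are not members. The members are thus not the top of that ranking. Halr1 (5.91) was followed there by Gm25732 (5.54), also not a member. In 4h vs 2h Dusp27 (4.19) was followed by Esrrb (4.18, rank 5).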

How the data were processed

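RNA was depleted of ribosomal RNA and sequenced, per the labels' protocols. The authors deposited raw counts per gene for 15 libraries; the build mm10, STAR 2.5.3a and bcl2fastq 2.19.1 are named in the submitters' processing notes, with no roles. The annotation, the counting tool and the use of strand are not given in the sources used here. Of 52636 identifiers, 52489 were in GENCODE M21.

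The count model was edgeR 4.0.16 (R 4.3.3), after filterByExpr by group with minimums of 10 counts and 15 in total (13451 genes), with TMM scaling, group plus clone over all 15 libraries, and the two-sided quasi-likelihood F test with robust estimation. Genes were called at a Benjamini-Hochberg adjusted p under 0.05 over all genes. Clones were compared in a model of the combined group and clone. The SE is the log2 fold change divided by the square root of F. The steps were tested on simulated data. Alternatives included total-count and RLE scaling, no filter, DESeq2 1.42.0, removal of the 20 most abundant and mitochondrial genes, and each library left out; an older form of edgeR's dispersion estimate was added after seeing the data.

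The 6 members and the 12 gene lists were chosen with earlier results of these data known. Besides the members, named genes are at most 4 called genes per list with the largest change in 4h vs 0h, the 3 most alike in profile and the nearest neighbours; H2-K1, Klf2, the zero-count markers and the marker genes named without a fold change were chosen after their values were seen. Lists are described by counts and medians, with no test of the list. Promoters are from RefSeq, matched by symbol for 4 members, with Galr1 left out of the search. Some genes of the lists are not reported here.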

Additional observations from a re-analysis of the deposited data

Results flagged for a closer look

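Of 18 combinations of a gene and a group of 4 libraries tested for a library far from the rest, 1 stood out by Dixon's 95% critical value, which by its construction flags about 1 in 20 by chance. Aire in rev was 1.33 CPM in clone 4 replicate 1, against 0.141 to 0.208 CPM in the other 3 libraries, and the gap took 0.944 of the group's range.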

How the results depend on the processing

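At 4h, 3 counts make 0.683 to 1.83 CPM, so levels of H2-M5 in clone 4 and Galr1 in clone 8 are near the limit of detection. Scaling by total count shifted the median gene by -0.73 log2 in 4h vs 0h, -0.57 in 4h vs 2h and 0.45 in rev vs 4h, and the share of higher genes among those called went from 51.98% to 7.11% in 4h vs 0h and from 49.15% to 87.99% in rev vs 4h. Under that scaling Hibadh (-0.28) and Tax1bp1 (-0.46) turned sign in 4h vs 0h, Ptbp1 in rev vs 4h (0.0111), and Dusp27 in rev vs 0h (-0.14) and between clones at 4h (-0.058).

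The number of genes called in rev vs 0h (1500) was 759 with total-count scaling, 793 without the clone term, 2296 without the 20 most abundant and mitochondrial genes and 2934 with only the groups compared. In rev vs 2h (311) it was 119, 96, 510 and 529 in that order, and 575 without the filter on low counts. Between clones at 4h (1921) it was 448 with total-count scaling and 1114 with DESeq2, and for the clone difference in response (422) it was 147 and 252. These causes were not tested.

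With each library left out in turn, the genes called ranged from 511 (without clone 4 replicate 1 of 0h) to 1299 in rev vs 0h, 157 to 278 in rev vs 2h, 1272 to 1637 between clones at 4h and 278 to 403 for the clone difference. In rev vs 0h, Aire ranged from -2.11 to 0.045 log2, H2-M5 from -1.97 to -0.18 and Dusp27 from -0.064 to 0.53. In rev vs 2h, Galr1 ranged from 1.49 to 2.21 and Halr1 from 0.65 to 0.98. For H2-M5 between clones the only value was 1.69, since it did not reach the filter without another 4h library. The Halr1 clone difference in response ranged from -0.23 to 0.29; the Galr1 difference between clones at 4h ranged from -3.99 to -2.76 and passed each time.

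Galr1 in rev vs 2h was 2.09 without the clone term (adjusted p = 0.203) and 1.86 with the clone and replicate number as a replicate block (adjusted p = 0.0634). Libraries with the same number had correlations of deviations from -0.194 to 0.261. These values do not show whether libraries with the same number were handled together. The block moved the count in rev vs 0h to 1104 and in rev vs 2h to 264.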
